A study of Mus musculus with 19 samples.

Results

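The cytosolic ribosomal protein genes were followed in blood leukocyte RNA of 2 mouse strains after injection of CAWS, a water-soluble extract of Candida albicans that induces arteritis. Their members were all non-control probes whose gene name is Rpl or Rps followed by a digit, or Rplp0, Rplp1, Rplp2 or Rpsa. The 21 probes of Rps6k kinases, which share these letters, were left out. The rule found 83 of 27745 gene names, with 138 of 41174 probes, 50 names of the large and 33 of the small subunit. One of these names, Rps19bp1, belongs to a nucleolar protein that binds Rps19 and is not a subunit of the ribosome. Of the 138 probes, 128 probes of 82 genes were bright enough to be tested, and 116 were well above background in all 18 samples. Of the other 10 probes, 4 were well above background in 0 samples and 6 in 1, and Rpl3l, a muscle paralog of Rpl3, was the gene without a tested probe.

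The samples were circulating leukocytes of male DBA/2 and B6 mice, all of which had received CAWS into the peritoneum. Both strains were sampled at 0 w, which is right after the last injection, and 2, 4, 8 and 9 w after it. The study set both strains side by side because they are known to differ in the severity of this arteritis. Each group held 2 samples, other than B6 at 2 w and at 9 w with 1 each, so that 18 RNA samples made up 10 groups. There was no uninjected group among them. Single-color arrays gave 1 brightness per probe, which was taken as log2 and set against the 75th percentile of its array. A level below is this log2 value, and a change is a difference of such values. One sample, B6 0 w replicate 2, is the mean of 2 arrays of the same RNA. The submitters call the 2 samples of a group biological replicates but state that a mouse was run once or in duplicate, so p values measure the spread between these samples, which may be technical. With so few arrays, the precision of each value is limited.

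A ribosome is built of 2 subunits, and each ribosomal protein sits once in its subunit, apart from the proteins of the stalk. Rplp0 is the base of that stalk, Rplp1 and Rplp2 form its flexible arms, and Rpl12 lies beside it. Together they recruit the elongation factors. Cells make ribosomal proteins in equal amounts and control most of them together through the translation of their mRNAs, which begin with a run of pyrimidines (a TOP start) that answers to mTOR. Resting leukocytes differ in how much ribosomal protein mRNA they hold, and lymphocytes are known for holding much of it while mature neutrophils hold little.

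The annotated starts show which of a selection of the members named below carry the letters of a TOP start. RefSeq gives a start for 63 of the member genes on the build GRCm38.p6. Each line below holds the 10 bases before the annotated start and the first 20 bases from it, and capitals mark a C followed by at least 4 pyrimidines that begins within 3 bases of the start. The first 6 of these genes hold such a run, namely Rpl13a, Rps6, Rpl38, Rpl22l1, Rplp2 and Rps27l, while Rps19, Rpl41, Rpl39 and Rplp0 have none that begins within 3 bases of the start. Rps27l and Rps19 have further annotated starts, which hold no such run. The genes shown are a selection, and their share with a run is not that of all members.
Rpl13a, chr7:45128726-45128755, minus strand: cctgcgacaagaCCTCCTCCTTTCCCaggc
Rps6, chr4:86857348-86857377, minus strand: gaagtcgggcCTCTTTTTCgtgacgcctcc
Rpl38, chr11:114668570-114668599, plus strand: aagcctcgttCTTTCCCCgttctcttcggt
Rpl22l1, chr3:28805498-28805527, plus strand: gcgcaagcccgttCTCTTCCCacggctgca
Rplp2, chr7:141447641-141447670, plus strand: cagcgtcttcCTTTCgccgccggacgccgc
Rps27l, chr9:66946076-66946105, plus strand: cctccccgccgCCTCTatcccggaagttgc
Rps19, chr7:24884582-24884611, plus strand: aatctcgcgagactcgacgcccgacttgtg
Rpl41, chr10:128549149-128549178, minus strand: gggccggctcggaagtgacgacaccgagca
Rpl39, chrX:37085203-37085232, minus strand: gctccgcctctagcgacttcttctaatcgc
Rplp0, chr5:115559457-115559486, plus strand: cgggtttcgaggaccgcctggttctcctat

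Such a start was found for 25 of the 63 member genes (39.7%), against 3651 of 27025 genes with an entry (13.5%). Annotated starts can lie a few bases from the start a cell uses, and a start without the run here says only that no such run begins within 3 bases of the annotated position. The medians of members with and without the run lay close together. In DBA/2 mice at 9 w the 25 genes with it had a median change of -0.40 and the 37 tested genes without it -0.36. In B6 mice at 8 w these medians were -0.29 and -0.23.

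Other properties of the samples changed along with the members and are given first. Summed over its 9 genes on the linear scale, where 1 is the 75th percentile of the array, a list of hepatocyte markers reached 48.4 to 49.5 in B6 mice at 0 w and 41.2 to 41.5 at 8 w, and 4.04 to 18.4 in all other groups, where Apoa1, Apoa2, Apoc3 and Ttr were not well above background in any sample. The sum over 9 neutrophil markers rose from 107 to 108 in DBA/2 mice at 0 w to 336 to 362 at 4 w and 704 to 785 at 8 w, and from 57.3 to 57.5 in B6 mice at 0 w to 430 to 432 at 8 w. All 10 T cell markers were well above background in every sample, and their sum fell from between 16.3 and 16.7 to between 9.42 and 9.66 in DBA/2 mice at 9 w, and from between 15.4 and 15.7 to between 11.2 and 11.4 in B6 mice at 8 w. In DBA/2 mice between 0 w and 9 w, the sum over 7 B cell markers fell from between 27.6 and 29.4 to between 13.6 and 14.6 and that over 5 NK cell markers from between 3.85 and 3.90 to between 2.60 and 2.64, while 8 monocyte markers stood at 105 to 111 and 210 to 243 and 5 platelet markers at 251 to 272 and 368 to 398. The 6 erythroid markers, mostly globins, were bright in all samples, at 2977 to 3074 in B6 mice at 8 w and 3442 to 7171 elsewhere. The part of these cells in the results below was not tested, and fewer cells of a type and less RNA per cell cannot be told apart in such samples.

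The median over the main probes of the 82 genes, the brightest probe of each, was highest in DBA/2 mice at 0 w and lowest in B6 mice at 8 w. In DBA/2 mice it was 5.31 and 5.22 at 0 w, 5.11 and 5.03 at 2 w, 4.91 and 4.90 at 4 w, 5.25 and 5.16 at 8 w, and 5.0 and 4.91 at 9 w. Thus both samples each of 2, 4 and 9 w lay below both of 0 w, and those of 8 w overlapped with them. In B6 mice it was 4.95 and 4.91 at 0 w, 5.24 at 2 w, 4.85 and 4.82 at 4 w, 4.75 and 4.66 at 8 w, and 4.74 at 9 w. Here the single 2 w sample lay above both samples of 0 w, and all 5 later samples lay below them. The SD of this median between replicates was 0.050.

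**Figure D1:**
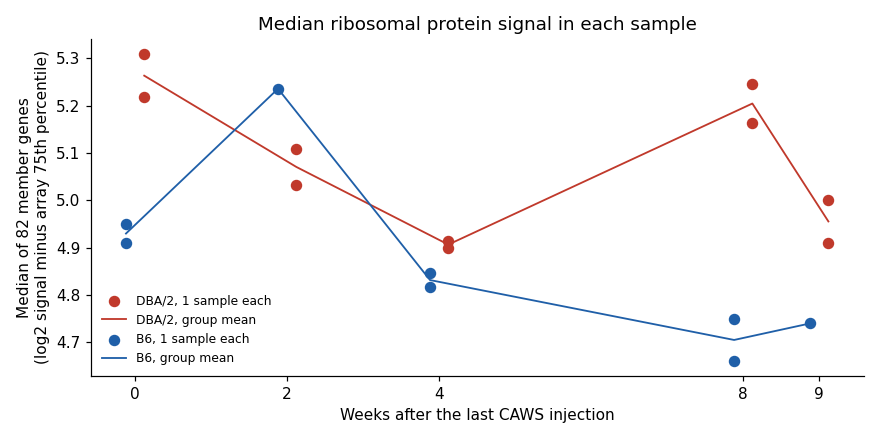
The y axis gives the median log2 level of the 82 genes in each sample (points), relative to the 75th percentile of the array, against the weeks after the last CAWS injection. Lines join the group means. The DBA/2 samples fall from 5.31 and 5.22 at 0 w to 4.91 and 4.90 at 4 w and stand at 5.25 and 5.16 at 8 w, while the B6 samples end at 4.74.

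The members of DBA/2 mice fell by 4 w and again by 9 w. At 4 w, 50 of the 128 probes (39.1%) were lower than at 0 w and 0 were higher, where 7.24% of all probes tested were lower and 7.58% higher, and the median change was -0.30 against -0.10 over all probes. At 9 w, 67 (52.3%) were lower and 3 higher, beside 14.3% and 13.4% of all probes, with medians of -0.35 and -0.03. At 2 w, 25 were lower and 1 higher, beside 7.82% and 7.90% of all probes, and the median was -0.19 against -0.05. At 8 w, 28 (21.9%) were lower and 2 higher, beside 14.0% and 10% of all probes, but the median of -0.09 lay above the -0.18 of all probes and turned positive where the 75th percentile was taken over all probes, with 5 lower and 11 higher. All 4 weeks were set against the same pair of 0 w samples, so that they are not separate observations. Beside the fall of the members at 4 w, 9 of 9 neutrophil markers and 7 of 8 monocyte markers were higher than at 0 w. The monocyte sum was then 201 to 212, against 105 to 111 at 0 w. These counts were also 9 of 9 and 7 of 8 at 8 w, with larger sums. Neutrophil markers then summed to 704 to 785, against 336 to 362 at 4 w, and monocyte markers to 246 to 269. Of 10 T cell markers, 5 were lower at 4 w and 9 at 8 w. The sample medians of the members at 8 w, 5.25 and 5.16, overlapped with those of 0 w, 5.31 and 5.22. The part of these cells was not tested.

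The fall was seen within each replicate number, which the 2 scan days follow. Of the 82 genes, 80 were lower at 4 w in replicate 1 and 81 in replicate 2, with a median change of -0.30 in both. At 9 w these medians were -0.32 and -0.39. The DBA/2 samples of 0, 2, 4 and 8 w with the same replicate number shared a slide, and those of 9 w lay on other slides. Week and slide thus cannot be told apart at 9 w. With the replicate number as a block, 44 probes instead of 25 were lower at 2 w, beside 21.9% of all probes in either direction. Median scaling and the 75th percentile over all probes each gave 2 lower and 1 higher at that week. With normexp background correction 0 members passed at 2, 4 and 8 w and 53 were lower at 9 w, while the median changes stayed negative. Fewer members were lower at 4 w without DBA/2 0 w replicate 1 (23), 0 w replicate 2 (30) or 4 w replicate 2 (21). At 9 w the members lower numbered 39 without 0 w replicate 1. At 2 w they numbered 2 without 0 w replicate 1 or 2 w replicate 2, and 5 without 0 w replicate 2 or 2 w replicate 1. At 8 w they numbered 11 without 0 w replicate 1, 9 without 0 w replicate 2, 13 without 8 w replicate 1 and 11 without 8 w replicate 2.

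**Figure D2:**
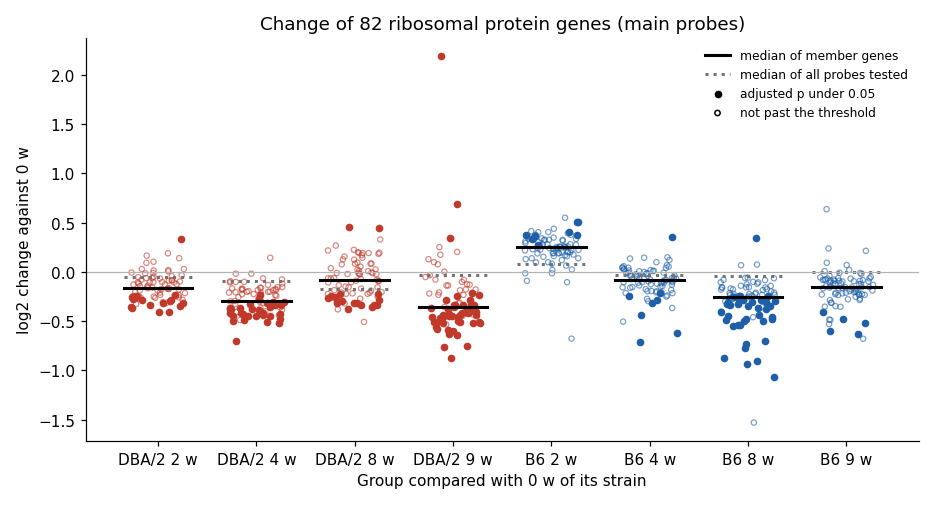
Each point is the main probe of 1 of 82 genes, and the y axis gives its log2 change against 0 w of the same strain in the group on the x axis. Filled points passed an adjusted p of 0.05, solid lines are the medians of the members and dotted lines those of all probes tested. The medians of the members lie below those of all probes at 4 w and 9 w in DBA/2 mice and at 8 w in B6 mice, and above them in B6 mice at 2 w. The fall in B6 mice at 8 w turns to a rise in the unscaled value table, where the median of all probes is 0.98.

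Over all probes tested in DBA/2 mice, 7.24% were lower at 4 w and 14.3% at 9 w, while 7.58% and 13.4% were higher. Among the small subunit genes, 13 of 32 fell at 4 w and 22 of 32 at 9 w, with 0 rises at either week. Rps19, a subunit needed to mature 18S rRNA and the gene most often mutated in Diamond-Blackfan anaemia, fell most. Its main probe (chr7:24597691-24597750 on mm8, as given in the files) had a level of 5.37 and 5.15 at 0 w, 4.96 and 4.75 at 2 w, 4.61 and 4.50 at 4 w, 4.92 and 4.90 at 8 w, and 4.47 and 4.30 at 9 w. All 8 later samples lay below both samples of 0 w. The change was -0.70 ± 0.11 (SE) at 4 w and -0.87 ± 0.11 at 9 w (adjusted p = 0.00235 and 0.000348), the latter 1.83-fold lower.

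Rps23, which lies in the decoding centre, changed by -0.41 at 4 w and -0.40 at 9 w (adjusted p = 0.0115 and 0.00716). Rps6, the subunit phosphorylated by S6 kinase, fell at 9 w by 0.37 ± 0.10 on the log2 scale (adjusted p = 0.0203), while its change at 4 w was -0.17 (adjusted p = 0.308). Rps3, at the entry of the mRNA channel, changed by -0.20 at 4 w and -0.22 at 9 w (adjusted p = 0.0667 and 0.0306). Rpsa, which also serves as a laminin receptor, read 2.58 and 2.51 at 0 w and 2.02 and 2.05 at 9 w, a fall of 0.51 ± 0.07 on the log2 scale (adjusted p = 0.000508).

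Among the large subunit genes of DBA/2 mice, 18 of 49 fell at 4 w and 25 of 49 at 9 w, while 0 and 3 rose. At these weeks 7.24% and 14.3% of all probes were lower and 7.58% and 13.4% higher. The paralogs Rpl22l1 and Rpl36al, which can stand in for Rpl22 and Rpl36a, were among the furthest at 9 w. Rpl22l1 read 3.42 and 3.24 at 0 w, 3.29 and 3.24 at 8 w, and 2.66 and 2.51 at 9 w, a change of -0.75 ± 0.09 (adjusted p = 0.000398). Rpl36al read 1.62 and 1.64 at 0 w and 0.97 and 0.76 at 9 w, a change of -0.76 ± 0.09 (adjusted p = 0.000316). For both genes, the 9 w samples lay below all other DBA/2 samples. Rpl36 fell at 4, 8 and 9 w, by 0.43, 0.33 and 0.52 on the log2 scale (adjusted p = 0.00548, 0.0113 and 0.00103). Rpl38, a small protein needed to translate a subset of Hox mRNAs in the embryo, fell by 0.48, 0.28 and 0.39 on that scale at these weeks (adjusted p = 0.00374, 0.0286 and 0.00552). Rpl11, which can bind and hold back Mdm2, fell by 0.48 and 0.33 at 4 w and 9 w (adjusted p = 0.00826 and 0.0273). Its partner Rpl5 changed by -0.09 at 4 w and -0.43 at 9 w (adjusted p = 0.799 and 0.0668, the latter 0.0390 with the replicate block). That block rests on a pairing by replicate number, which was weak between 0 w and 9 w of DBA/2 mice (correlation 0.026). Rpl3, at the peptidyl transferase centre, passed the threshold at no week in DBA/2 mice, with changes from -0.31 to 0.14.

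Against these falls, Rplp0 rose. It read 3.23 and 3.25 at 0 w, 3.59 and 3.56 at 2 w, 3.23 and 3.21 at 4 w, 3.64 and 3.76 at 8 w, and 3.96 and 3.89 at 9 w. The samples of 2, 8 and 9 w lay above both of 0 w, and those of 4 w did not. The changes at 2, 8 and 9 w were 0.34, 0.46 and 0.69 ± 0.08 (adjusted p = 0.0169, 0.00222 and 0.000214). A probe under the older name Arbp, which the naming rule does not take, gave the same gene changes of 0.38, 0.42 and 0.56 at these weeks (adjusted p = 0.0228, 0.00862 and 0.00172). Without that block no other protein of the stalk passed the threshold upwards at 9 w. Rplp1 changed by 0.34 ± 0.14 at 9 w (adjusted p = 0.112, and 0.0321 with the replicate block), Rplp2 by 0.00 ± 0.13 (adjusted p = 0.993), and Rpl12 fell by 0.44 ± 0.09 on the log2 scale (adjusted p = 0.00719). The pairing behind the block was weak at 9 w, as given above.

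The other rises in DBA/2 mice were single probes. Rpl39, a short protein of the exit tunnel, rose at 8 w by 0.44 ± 0.10 (adjusted p = 0.0106), and Rpl28 at 9 w by 0.35 ± 0.09 (adjusted p = 0.0163). The main probe of Rpl21 changed by 2.19 ± 0.70 at 9 w (adjusted p = 0.0442), where 1 sample read 7.0 and the other 4.2, beside 3.24 and 3.58 at 0 w. The higher value is that of replicate 2, whose array had 1187 spots marked as outliers.

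In B6 mice the members stood higher at 2 w, in the only sample of that week. Of the 128 probes, 10 (of 8 genes) were higher and 0 lower, beside 5.29% and 7.74% of all probes, and the median change was 0.23 against 0.08. Of the 82 genes, 77 were higher than in the 0 w sample of the same replicate number. Among them were Rpl36a and Rpl39 (0.50 each), Rpl22l1 (0.41), Rps3a and Rps29 (0.38 each), Rps15a (0.36) and Rpl37 (0.34), with adjusted p from 0.0249 to 0.0452. Rpl36a read 4.35 and 4.31 at 0 w and 4.83 at 2 w, and all 3 of its probes passed. With the replicate number as a block, 27 were higher and 0 lower, beside 16.3% of all probes called. The count fell to 1 without B6 0 w replicate 1 and to 0 without 0 w replicate 2, and was 0 with normexp correction. The platelet markers summed to 116 in this sample and to 306 to 318 in B6 mice at 0 w. The hepatocyte markers summed to 5.27 in this sample and to 48.4 to 49.5 at 0 w. The part of these cells was not tested.

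At 4 w 9.38% of the members of B6 mice were called, beside 15.7% of all probes. The hepatocyte markers summed to 4.63 to 4.82 at 4 w and to 48.4 to 49.5 at 0 w, and their part was not tested. Of the 128 probes, 11 (8.59%) were lower and 1 (0.781%) higher, beside 9.66% and 6.02% of all probes, and the median change was -0.09 against -0.03, which turned positive with the 75th percentile over all probes. Rps27l, a paralog of Rps27 that answers to p53, stood out with 0.56 and 0.55 at 0 w, -0.17 and -0.15 at 4 w, and 0.44 and 0.50 at 8 w. Its change at 4 w was -0.72 ± 0.08 (adjusted p = 0.000324), and both 4 w samples lay below all other B6 samples. Rpl7l1, a paralog of Rpl7 known from ribosome assembly, was dim and read -2.28 and -2.30 at 0 w and -2.86 and -2.95 at 4 w, a change of -0.62 ± 0.12 (adjusted p = 0.00829). Rpl13a, which is released from the ribosome in interferon-treated monocytes to silence inflammatory mRNAs, fell by 0.44 ± 0.07 on the log2 scale (adjusted p = 0.00419). Rplp0 was the probe that rose, by 0.35 ± 0.08 (adjusted p = 0.0142). Of the 4 probes outside the naming rule, which include that of the same gene under the name Arbp, 0 were called, with changes up to 0.27. With the block, 19 were lower and 1 higher, beside 21.7% of all probes called, and 3 were lower without 0 w replicate 1, without 0 w replicate 2 or without 4 w replicate 2, and 4 without 4 w replicate 1.

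At 8 w 47 of the 128 probes (36.7%) were lower in B6 mice and 1 was higher, beside 10.2% and 11.0% of all probes. The median change was -0.25 against -0.04 over all probes, and of the 82 genes 80 were lower in replicate 1 and 79 in replicate 2. In replicate 1 the samples of 8 w and 0 w lay on different slides. In replicate 2 the 8 w sample shared a slide with 1 of the 2 arrays of 0 w. Week and slide thus cannot be fully told apart here. Rpl41, the shortest ribosomal protein, fell most among those past the threshold. It read 8.14 and 8.16 at 0 w, 8.37 at 2 w, 8.08 and 8.15 at 4 w, 7.06 and 7.10 at 8 w, and 7.52 at 9 w. The change at 8 w was -1.07 ± 0.09 (adjusted p = 3.19e-05), and the 8 w samples lay below all other B6 samples, with the 9 w sample next. Rps29, a zinc-binding protein of the small subunit, read 7.39 and 7.39 at 0 w, 6.47 and 6.51 at 8 w, and 6.79 at 9 w, a change at 8 w of -0.90 ± 0.08 (adjusted p = 4.48e-05). Rpl38 followed with 6.92 and 6.95 at 0 w and 6.07 and 6.06 at 8 w, a change of -0.87 ± 0.08 (adjusted p = 6.84e-05).

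Of the stalk, Rplp2 fell by 0.94 ± 0.13 on the log2 scale (adjusted p = 0.000832), Rplp1 by 0.54 ± 0.14 (adjusted p = 0.0248) and Rpl12 by 0.46 ± 0.09 (adjusted p = 0.0073). Rplp0 itself changed by -0.18 ± 0.08 (adjusted p = 0.137), and its probe under the name Arbp by -0.39 (adjusted p = 0.0145). Rpl39 changed by -0.77 ± 0.10 (adjusted p = 0.000572). Rpsa was the probe that rose, from 2.13 and 2.15 at 0 w to 2.50 and 2.46 at 8 w (0.34 ± 0.07, adjusted p = 0.00597).

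The falls at 8 w were found mostly among bright probes. Of the 28 brightest main probes 22 were lower, with a median change of -0.38, and of the 27 dimmest 4 were lower, with a median of -0.18. Spearman's rho between the change and the mean level was -0.49 over the 82 genes, which is a description across genes that are not independent. The bright end of the whole array also lay closer to the 75th percentile at 8 w. The log2 distance from that percentile to a higher one was 3.12 and 3.14 at 8 w and 3.27 and 3.31 at 0 w. How far bright probes of other genes fell was not tested. The raw signals of B6 mice at 8 w were the brightest of all samples, with 75th percentiles of 537 and 560 against 244 to 486 elsewhere, and no member probe was saturated on any array. In the deposited value table without any scaling between arrays, the direction of the 8 w median turned to 0.77, where that of all probes was 0.98, and 113 members were higher and 0 lower. Under quantile normalization 4 were lower and 6 higher, and with normexp correction 3 were lower, with a median of -0.10 against -0.63 over all probes. The members lower numbered 16 without B6 0 w replicate 1 and 21 without 0 w replicate 2, 8 w replicate 1 or 8 w replicate 2. The hepatocyte markers were bright in both groups compared, and their part was not tested.

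**Figure D3:**
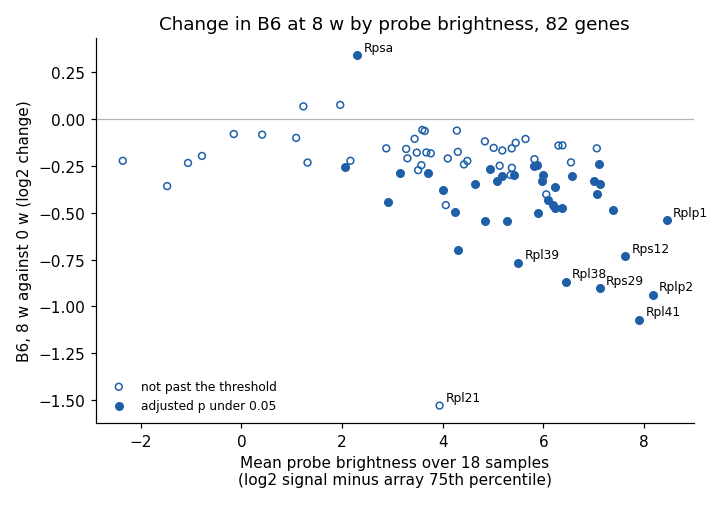
The y axis gives the log2 change of each of 82 main probes in B6 mice between 0 w and 8 w, and the x axis its mean log2 level over the 18 samples. Filled points passed an adjusted p of 0.05. The changes of the bright probes reach further down, to -1.07 for Rpl41, and Rpsa is the filled point above 0.

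At 9 w, with 1 sample, 5 members of B6 mice were lower (3.91%) and 0 higher, beside 3.86% and 5.48% of all probes (9.34% in either direction). They were Rpl41 (-0.63), Rps29 (-0.60), Rpl38 (-0.52), Rpl39 (-0.48) and Rpl35 (-0.41), and all 5 had also been lower at 8 w, against the same 0 w samples. The block raised the count to 13 lower, beside 13.5% of all probes called, and without 0 w replicate 1 or 0 w replicate 2 it was 3 lower, and 1 higher in the first of these. Set against the 2 w sample instead, in comparisons chosen after seeing the data that leave out both groups with bright hepatocyte markers, 38 members were lower at 4 w and 34 at 9 w, with 0 higher, beside 8.96% and 4.72% of all probes lower and 6.62% and 7.39% higher. Both of these rest on the single 2 w sample.

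For the mean change of 4 w and 8 w against 0 w, which was compared between the strains, 48 probes were lower and 1 higher in DBA/2 mice, beside 13.1% and 9.80% of all probes. In B6 mice 24 were lower and 0 higher, beside 7.73% and 7.28%. The median changes were -0.21 and -0.18, against -0.14 and -0.08 over all probes. That of B6 mice turned positive in the unscaled value table, where the median of all probes was 0.45. Counted by main probe, 29 genes were lower in DBA/2 mice and 21 in B6 mice, and 11 in both, which is 37.9% of the former and 52.4% of the latter. Over all probes tested, 484 were lower in both strains, which is 16.1% of those lower in DBA/2 mice and 27.3% of those lower in B6 mice. Members are counted here by gene, and a larger share of them was lower in each strain. The percentages of members and of all probes therefore do not show whether members were shared more often. Among the 11 were Rpl12, Rpl13, Rpl18, Rpl37a, Rpl38, Rpl41, Rps13, Rps26 and Rps29. Among the largest mean falls of main probes past the threshold in DBA/2 mice were those of Rps19 (-0.53, adjusted p = 0.00291), Rpl36 and Rpl38 (-0.38 each) and Rps23 (-0.37). The rise was that of Rplp0 (0.22, adjusted p = 0.0408), while its probe under the name Arbp was not called higher. The largest mean falls of B6 mice follow. They included Rpl41 (-0.55, adjusted p = 0.00103), Rpl38 and Rplp2 (-0.48 each), Rps29 (-0.45) and Rpl7l1 (-0.42). With the block 63 were lower in DBA/2 mice and 47 in B6 mice, beside 28.6% and 20.8% of all probes called in either direction, and with normexp correction 0 were called in either strain. The 75th percentile over all probes gave 17 lower in DBA/2 mice and 5 in B6 mice, median scaling 29 and 12, and quantile normalization 31 and 4. In DBA/2 mice 16 were lower without 0 w replicate 1, 20 without 0 w replicate 2 and 32 without 4 w replicate 2. In B6 mice 5 were lower without 0 w replicate 1, 4 without 0 w replicate 2, 11 without 4 w replicate 1 or 2, 10 without 8 w replicate 1 and 12 without 8 w replicate 2.

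The test of the strain difference itself, DBA/2 mean change less B6 mean change, called few members. Of the 128 probes 2 were positive and 5 negative (1.56% and 3.91%), beside 6.48% and 6.73% of all probes, and the median difference was -0.01 against -0.04. Rpl39 was positive at 0.52 ± 0.12 (adjusted p = 0.0225). Its samples read 5.44 and 5.23 at 0 w, 5.22 and 5.19 at 4 w, and 5.79 and 5.76 at 8 w in DBA/2 mice, and 5.89 and 5.81, 5.89 and 5.88, and 5.09 and 5.06 in B6 mice. At 8 w the gene thus stood above 0 w in one strain and below it in the other. Rps27l was positive at 0.38 ± 0.09 (adjusted p = 0.0269), with 0.62 and 0.64 at 0 w, 0.51 and 0.44 at 4 w, and 0.82 and 0.69 at 8 w in DBA/2 mice beside the fall at 4 w in B6 mice. Rpsa was negative at -0.32 ± 0.08 (adjusted p = 0.0304), with 2.24 and 2.17 at 4 w and 2.47 and 2.47 at 8 w in DBA/2 mice beside its rise in B6 mice. The other negative probes were both probes of Rps28 that are not its brightest (-0.40 and -0.43), a second probe of Rps19 (-0.57) and a dim one of Rps13 (-0.79).

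The main probe of Rps19 differed by -0.38 ± 0.13 (adjusted p = 0.0929, and 0.0463 with the replicate block), and the brightest probe of Rps28 by -0.24 ± 0.18 (adjusted p = 0.472). With the block 6 members were positive and 10 negative, beside 18.3% of all probes called. With normexp correction and with no filter on dim probes 0 members passed. The directions of Rpl39 and Rps27l turned in the unscaled value table, where the median difference of all probes was -0.64. Leaving out 1 library gave 1 call without B6 0 w replicate 1, DBA/2 0 w replicate 1 or DBA/2 0 w replicate 2, 2 without B6 0 w replicate 2 or B6 4 w replicate 1, 3 without DBA/2 4 w replicate 2 or DBA/2 8 w replicate 1, and 4 without B6 8 w replicate 1.

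**Figure D4:**
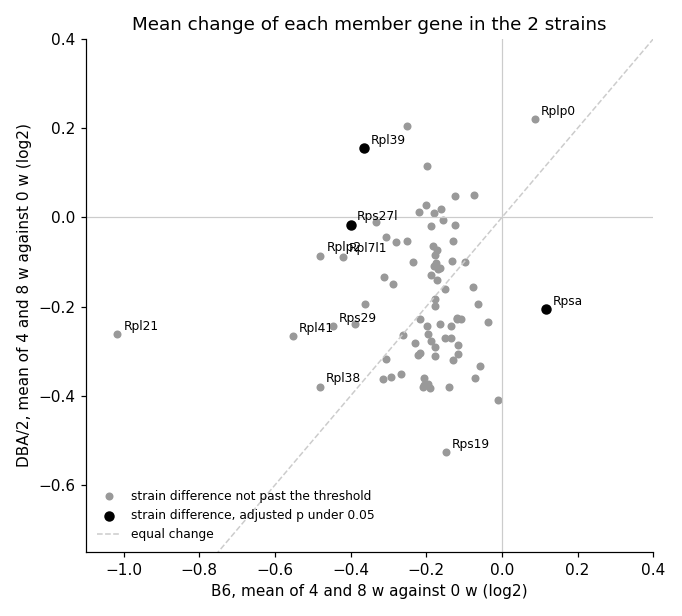
Each point is 1 of 82 genes, with its mean log2 change of 4 w and 8 w against 0 w in B6 mice on the x axis and in DBA/2 mice on the y axis. The dashed line marks equal change, and black points passed the test of the difference between the strains. Rpl39 and Rps27l lie above the line and Rpsa below it, and most genes lie below 0 in both strains. In the unscaled value table Rpl39 and Rps27l lie below the line and the median of B6 mice is above 0. There the median of all probes is -0.64 for the strain difference and 0.45 for B6 mice.

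The levels themselves differed between the strains more often than the changes did. At 8 w 86 of the 128 probes (67.2%) were higher in DBA/2 than in B6 mice and 5 lower, beside 10.4% and 15.0% of all probes, and the median difference was 0.41 against -0.04. At 0 w 49 (38.3%) were higher and 12 lower, beside 17.2% and 15.4%, with medians of 0.23 and 0.06. At 4 w 29 (22.7%) were higher and 21 lower, beside 19.1% and 13.0%, with medians of 0.04 and 0.06. Within replicate 1 and replicate 2 the median difference was 0.47 and 0.41 at 8 w, 0.26 and 0.19 at 0 w, and 0.08 and 0.04 at 4 w. At each of these weeks the 2 strains lay on different slides, so that strain and slide cannot be told apart. All 5 probes lower at 8 w belong to Rpl29 (4 probes) and Rpl21. Without any scaling 16 were higher and 15 lower at 8 w, and quantile normalization gave 80 higher and 5 lower at 4 w. With normexp correction 22 were higher and 1 lower at 0 w, 8 and 4 at 4 w, and 15 and 2 at 8 w. At 0 w 32 were higher and 7 lower without DBA/2 0 w replicate 1, at 4 w 14 and 19 without DBA/2 4 w replicate 1, and at 8 w 53 and 6 without DBA/2 8 w replicate 1. The unscaled value table moved the median difference to 1.05 at 0 w, 0.84 at 4 w and 0.05 at 8 w, a shift shared by all genes that is larger than many of the differences named below. The hepatocyte markers were bright in B6 mice at 0 w and 8 w and not at 4 w, and their part in the strain differences was not tested.

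In all 3 weeks 21 probes of 16 genes were higher in DBA/2 mice, among them the subunits Rpl3, Rpl6, Rpl9, Rpl14, Rpl22, Rps3, Rps3a, Rps4x, Rps15, Rps18, Rps19 and Rps27, and 3 probes of Rpl29 were lower. These are 16.4% and 2.34% of the 128 probes, where 3.91% of all probes tested were higher at all 3 weeks and 4.87% lower. Rps3a, which joins initiation on the small subunit, read 4.81 and 4.84 in DBA/2 and 3.78 and 3.85 in B6 mice at 0 w. It differed by 1.00, 0.65 and 0.96 at 0 w, 4 w and 8 w (adjusted p from 1.54e-05 to 0.000219). Rpl14 differed by 1.39, 0.93 and 1.26 and was dim, at -0.02 and 0.04 in DBA/2 and -1.64 and -1.12 in B6 mice at 0 w. Rps19 differed by 1.10, 0.47 and 0.97, and its samples at 0 w read 5.37 and 5.15 in DBA/2 and 4.17 and 4.15 in B6 mice. Rpl3 differed by 0.49, 0.48 and 0.69, and Rps3 by 0.25, 0.27 and 0.33, with the adjusted p of both at or under 0.0134.

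At 2 w and 9 w the strains were compared after the data had been seen, with 1 B6 sample each and the strains again on different slides. At 2 w 7 of the 128 probes were higher in DBA/2 mice and 24 lower, beside 11.4% and 12.5% of all probes, with a median difference of -0.16. At 9 w 11 were higher and 10 lower, beside 6.33% and 6.98%, with a median of 0.11.

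Rpl29, which binds heparin as well as the ribosome, went the other way. Its probe at chr9:106288414-106288473 (mm8) read -0.13 and -0.24 in DBA/2 and 1.02 and 0.96 in B6 mice at 0 w, and the difference was -1.17, -1.46 and -1.33 at 0 w, 4 w and 8 w (adjusted p from 1.2e-05 to 5.95e-05). All 4 probes of the gene differed in this direction at 4 w and 8 w, by -0.52 to -1.46. Whether a base that differs between the strains lies under a probe was not tested for any member.

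Some members were called on opposite sides at different weeks. The 9 genes Rpl23a, Rpl37a, Rpl39, Rpl41, Rplp0, Rplp2, Rps12, Rps15a and Rps29 were, by their main probes, lower at 4 w and higher at 8 w in DBA/2 than in B6 mice, and Rpl10, Rpl39 and Rplp2 were lower at 0 w and higher at 8 w. By probe, 10 of the 128 (7.81%) showed the first pattern and 3 (2.34%) the second, beside 1.22% and 0.972% of all probes. The lower side depends on the scaling. At 4 w 5 members were lower with quantile normalization, 4 with normexp correction and 1 in the unscaled value table. The 9 genes were thus not all called lower under those settings. At 0 w these counts were 4, 1 and 1. Rpl39 differed by -0.51, -0.68 and 0.70 at 0, 4 and 8 w (adjusted p = 0.00364, 0.000656 and 0.000736). Rplp2 differed by -0.50, -0.64 and 0.43 (adjusted p = 0.0157, 0.00453 and 0.0379). Of the stalk genes 4 of 4 were higher in DBA/2 mice at 8 w, by 0.38 to 0.76, beside 10.4% of all probes. Rpl38 stayed on the lower side at 0 w and 4 w, by 0.39 and 0.77 on the log2 scale, and differed by 0.20 at 8 w (adjusted p = 0.1).

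**Figure D5:**
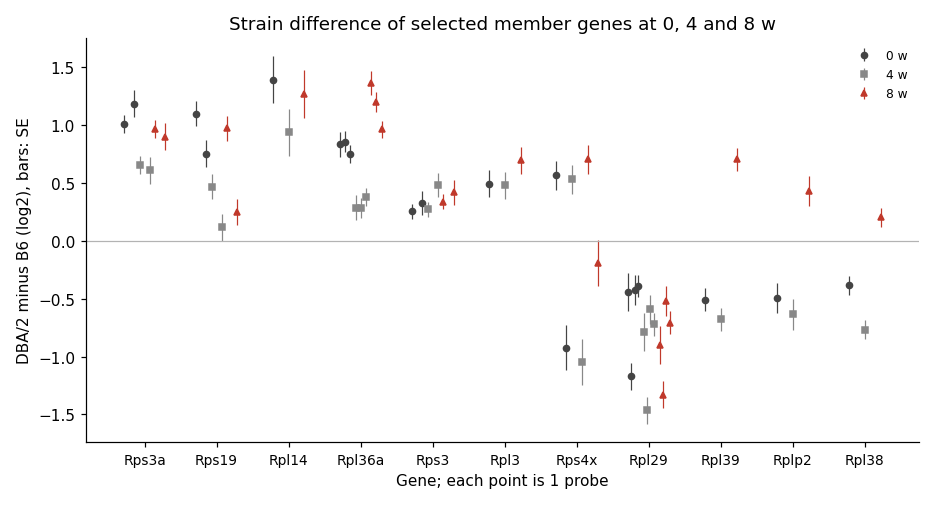
The y axis gives the level in DBA/2 minus that in B6 mice on the log2 scale at 0 w, 4 w and 8 w, 1 point per probe with its standard error, for the genes on the x axis. Rps3a, Rps19, Rpl14 and Rpl36a lie above 0 at all 3 weeks and Rpl29 below, while Rpl39 and Rplp2 lie below 0 at 0 w and 4 w and above it at 8 w. All are scaled to the 75th percentile, and the unscaled value table shifts the median of the members to 1.05, 0.84 and 0.05.

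Several members have more than 1 probe, which shows how far a call rests on the place that was probed. Of the 36 genes with several tested probes, Rps4x was the one whose probes were called in opposite directions. Its main probe was higher in DBA/2 mice by 0.56 at 0 w and 0.53 at 4 w, and a second, dimmer probe that the files place nowhere was lower by 0.92 and 1.05 on the log2 scale. The 2 probes of Rpl10 moved alike, though the files place the brighter one on chromosome 13 and the other on X, where the annotated gene lies. Ribosomal protein genes have many processed copies in the genome, and whether a probe also binds their transcripts was not tested. A level is the brightness of a probe, so that levels of different genes are not set against each other here.

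Genes mutated in Diamond-Blackfan anaemia, a failure of red cell formation through a shortage of single ribosomal proteins, are 19 of the tested members. At 9 w in DBA/2 mice 13 of the 19 fell and 0 rose, with a median of -0.44. Of all 82 tested genes, 47 fell and 3 rose there (median -0.36), and 14.3% of all probes were lower. In B6 mice at 8 w 7 fell and 0 rose, with a median of -0.26, beside 37 and 1 of the 82 (median -0.25) and 10.2% of all probes lower. At 8 w 17 were higher in DBA/2 than in B6 mice and 0 lower, beside 65 and 1 of the 82 and 10.4% of all probes higher. Thus most members outside this list moved the same way. Of 6 members that bind Mdm2 or answer to p53, 4 fell and 0 rose in DBA/2 mice at 9 w, with a median of -0.38. In B6 mice at 8 w 0 of these 6 passed in limma's test, with a median of -0.19. The falls of B6 mice at 8 w depend on the scaling in these lists and those below as they do over all members.

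Of 4 probes for proteins of the ribosome outside the naming rule, 2 fell and 2 rose in DBA/2 mice at 9 w, with a median of 0.11. Over all probes 14.3% fell and 13.4% rose there. The probe of Rplp0 under the name Arbp was among the 2 rises. Fau, whose precursor yields a small subunit protein, fell by 0.40 at 4 w and 0.49 at 9 w on the log2 scale in DBA/2 mice (adjusted p = 0.0316 and 0.00711). Rack1, a signalling scaffold of the small subunit, fell by 0.26 at 9 w (adjusted p = 0.0443).

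Other genes of the pathway were taken from lists of general knowledge and counted by their main probes. Of all probes tested, 14.3% were lower and 13.4% higher in DBA/2 mice at 9 w. In B6 mice these shares were 9.66% and 6.02% at 4 w, and 10.2% and 11.0% at 8 w. Of 32 factors of ribosome biogenesis, 19 fell and 0 rose in DBA/2 mice at 9 w, with a median of -0.43 beside -0.03 over all probes, among them Taf1d of RNA polymerase I transcription (-0.82) and the snoRNP proteins Nop58 (-0.67) and Nop10 (-0.58). In B6 mice at 8 w 4 of them fell and 0 rose, with a median of -0.13. Of 74 mitochondrial ribosomal proteins, which build a separate ribosome, 39 fell and 2 rose in DBA/2 mice at 9 w, with a median of -0.35, which was also that of the cytosolic members. In B6 mice 30 fell and 0 rose at 4 w (median -0.36), where the cytosolic members had a median of -0.09, and 1 fell and 3 rose at 8 w (median 0.01), where the cytosolic median was -0.25.

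The factors that work on the finished ribosome went both ways. Of all probes tested, 14.3% were lower and 13.4% higher in DBA/2 mice at 9 w, and 10.2% and 11.0% in B6 mice at 8 w. The counts of initiation factors in DBA/2 mice at 9 w lie near these shares. Of 5 elongation factors 1 fell and 2 rose in DBA/2 mice at 9 w, with Eef2 at 0.68 (adjusted p = 0.000339) and Eef1g at -0.62 (adjusted p = 0.00946), and 2 fell in B6 mice at 8 w, with Eef2 at -0.56 (adjusted p = 0.00112). Of 28 initiation factors 5 fell and 4 rose in DBA/2 mice at 9 w, and 7 fell and 0 rose in B6 mice at 8 w. Of 8 other mRNAs with a known TOP start 2 fell and 3 rose in DBA/2 mice at 9 w, with Npm1 at -0.64 and Tpt1 at 0.69, and 1 fell and 1 rose in B6 mice at 8 w. Of 12 genes of mTORC1 and S6 kinase 3 fell and 2 rose in DBA/2 mice at 9 w, where Eif4ebp1, a repressor of translation, rose by 0.93 (adjusted p = 6.75e-05), and 6 fell and 2 rose in B6 mice at 8 w.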

How the data were processed

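RNA of 18 leukocyte samples was hybridized by the authors to 19 single-color Agilent whole mouse genome arrays. The deposited files hold, per spot, a processed signal from Agilent Feature Extraction 9.5.3.1, an intensity after subtraction of background and of trends within the array, with probe positions on mm8. The deposited value table holds the same intensity per probe on a linear scale, without scaling between arrays, and its log2 was an alternative. All intensities were taken as log2. Outlier spots were left out and saturated spots kept. Each array's 75th percentile was subtracted, taken over 11536 probes that every array measured well above background. A probe entered the fit if 2 or more of the 18 samples did so, which left 22939. Limma 3.58.1 (R 4.3.3) fitted a mean per group with 8 residual and 1.37 prior degrees of freedom. Benjamini-Hochberg adjustment covered all probes, with a threshold of 0.05. The 2 B6 groups with 1 sample are assumed to vary like the others. The fit was also tested on simulated data.

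Members, gene lists and tests were chosen with earlier results of these data known. Named genes are Rpl3, Rps3, the stalk genes, the paralogs, Rps6, Rps19, Rpl5, Rpl11, Rpl13a, the 5 largest rises and falls of each mean change and of the strain difference, genes with opposed probes, and counts of 5 or fewer. Some genes that the rule names are not reported here. Others named were chosen after their values were seen. Lists covered markers of hepatocytes, neutrophils, monocytes, lymphocytes (T, B and NK), erythroid cells and platelets, and the pathway lists of the text.

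Per the file headers, replicate numbers follow the 2 scan days. Deviations from the group means of same-numbered samples correlated by 0.33 to 0.41 over 6 pairs of DBA/2 groups (0, 2, 4 and 8 w), by 0.19 to 0.29 over 3 pairs of B6 groups (0, 4 and 8 w), and by 0.017 to 0.41 over all 28 pairs, so the number was used as a block in an alternative fit. DBA/2 9 w correlated with the other DBA/2 groups by 0.017 to 0.054 only, so the block has little ground there. The other alternatives were normexp correction (offset 50), quantile, median and other 75th percentile scalings, a floor of 10, other filters, outlier or saturated spots treated otherwise, the slide as a block, each technical array, each strain alone, array weights, mean probes, a 2-fold rule without a test, and each replicate left out.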

Additional observations from a re-analysis of the deposited data

Results flagged for a closer look

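Limma's own test of the strain difference, the DBA/2 mean change of 4 w and 8 w less that of B6, set 3 main probes apart. For Rpl39 the difference was 0.52 (adjusted p = 0.0225), with adjusted p of 0.138 without a filter on dim probes, 0.968 with normexp correction, 0.0927 with quantile normalization and 0.638 in the unscaled value table, where the direction turned. For Rps27l it was 0.38 (adjusted p = 0.0269), with 0.222 without a filter, 0.968 with normexp correction and 0.173 in the unscaled value table, where the direction turned. For Rpsa it was -0.32 (adjusted p = 0.0304), with 0.293 without a filter, 0.968 with normexp correction, 0.0737 with the 75th percentile over all probes and 0.0518 with median scaling. In the unscaled value table the median difference of all probes was -0.64, and Rpl39 (-0.085) and Rps27l (-0.22) lay above it. With 1 of the 12 samples left out in turn, the adjusted p rose above 0.05, so that the call was lost, in 3 of 12 fits for Rpl39, 8 for Rps27l and 11 for Rpsa, with highest values of 0.0989, 0.094 and 0.121.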

How the results depend on the processing

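Of 66 values of single named genes, those past the threshold turned in sign in the unscaled value table alone. Counts below are of 128 probes, or of 82 genes where probes were joined, and each is given where it moved by over 1.5 times or changed direction, medians where they moved by over the spread between replicates. The share of all probes called under each setting is not printed in this section. A count here alone does not set the members apart from other probes. Where a setting changed a count, the cause was not tested, apart from the smaller number of samples, genes or probes that some settings use by construction. Comparisons with 1 or 2 samples a group limit every value. Counting by main probe and comparing with 2 w were chosen after seeing the data.

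With the 75th percentile over all probes, the calls numbered 3 in DBA/2 2 w, 29 in DBA/2 4 w, 16 in DBA/2 8 w, 18 in the DBA/2 mean, 6 in B6 4 w, 27 in B6 8 w, 3 in B6 9 w, 5 in the B6 mean and 4 in the strain difference. The median changes became -0.099 in DBA/2 2 w, -0.21 in DBA/2 4 w, 0.054 in DBA/2 8 w, -0.096 in the DBA/2 mean, 0.018 in B6 4 w, -0.099 in the B6 mean and 0.50 in the strains at 8 w. With normexp correction, the calls numbered 0 in DBA/2 2 w, 0 in DBA/2 4 w, 0 in DBA/2 8 w, 0 in the DBA/2 mean, 0 in B6 2 w, 0 in B6 4 w, 3 in B6 8 w, 0 in B6 9 w, 0 in the B6 mean, 23 in the strains at 0 w, 12 in the strains at 4 w, 17 in the strains at 8 w and 0 in the strain difference. The median changes became -0.52 in DBA/2 9 w, -0.10 in B6 8 w, -0.036 in B6 9 w, -0.091 in the B6 mean, 0.30 in the strains at 0 w and 0.12 in the strains at 4 w. Under quantile normalization, the calls numbered 45 in DBA/2 2 w, 30 in DBA/2 4 w, 31 in the DBA/2 mean, 5 in B6 2 w, 10 in B6 8 w, 0 in B6 9 w, 4 in the B6 mean and 85 in the strains at 4 w. The median changes became -0.34 in DBA/2 2 w, -0.21 in DBA/2 4 w, -0.63 in DBA/2 9 w, -0.17 in B6 4 w, -0.0022 in B6 8 w, -0.081 in B6 9 w, -0.085 in the B6 mean, 0.52 in the strains at 0 w, 0.44 in the strains at 4 w and -0.069 in the strain difference. In the unscaled value table, the calls numbered 77 in DBA/2 2 w, 26 in DBA/2 4 w, 110 in DBA/2 9 w, 0 in B6 2 w, 7 in B6 4 w, 113 in B6 8 w, 25 in B6 9 w, 81 in the B6 mean, 118 in the strains at 0 w, 111 in the strains at 4 w, 31 in the strains at 8 w and 97 in the strain difference. The median changes became -0.45 in DBA/2 2 w, -0.26 in DBA/2 8 w, -0.78 in DBA/2 9 w, -0.29 in the DBA/2 mean, 0.088 in B6 2 w, 0.77 in B6 8 w, 0.32 in B6 9 w, 0.35 in the B6 mean, 1.05 in the strains at 0 w, 0.84 in the strains at 4 w, 0.046 in the strains at 8 w and -0.61 in the strain difference. After median scaling, the calls numbered 3 in DBA/2 2 w, 15 in DBA/2 8 w, 30 in the DBA/2 mean, 4 in B6 2 w, 7 in B6 4 w and 12 in the B6 mean. The median changes became -0.12 in DBA/2 2 w, -0.0067 in DBA/2 8 w, -0.15 in the DBA/2 mean and -0.029 in B6 4 w. Normexp correction moved the median of all probes to 0.78 in DBA/2 9 w, -0.63 in B6 8 w, -0.44 in the strains at 0 w and -0.53 in the strains at 4 w.

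The unscaled table turned the sign of the DBA/2 mean change of Rpl5 (-0.027), and of the B6 mean changes of Rpl11 (0.33), Rpl12 (0.22), Rpl13a (0.22), Rpl22l1 (0.35), Rpl3 (0.35), Rpl36 (0.32), Rpl36al (0.32), Rpl38 (0.047), Rpl39 (0.16), Rpl5 (0.40), Rpl7l1 (0.11), Rplp1 (0.33), Rplp2 (0.048), Rps19 (0.38), Rps23 (0.32), Rps27l (0.13), Rps29 (0.081), Rps3 (0.37) and Rps6 (0.40), and of the strain differences of Rpl13a (-0.34), Rpl3 (-0.51), Rpl38 (-0.50), Rpl39 (-0.085), Rpl41 (-0.32), Rpl5 (-0.43), Rpl7l1 (-0.27), Rplp0 (-0.48), Rplp1 (-0.29), Rplp2 (-0.21), Rps27l (-0.22), Rps29 (-0.40), Rps3 (-0.55) and Rps6 (-0.57). Quantile normalization turned the sign of the B6 mean changes of Rpl11 (0.046), Rpl5 (0.022), Rplp1 (0.16), Rps23 (0.18) and Rps3 (0.019), and of the strain differences of Rpl3 (-0.010), Rpl38 (-0.0088), Rps29 (-0.033), Rps3 (-0.034) and Rps6 (-0.036). The 75th percentile over all probes turned the sign of the DBA/2 mean changes of Rpl13a (0.073), Rpl3 (0.032), Rpl7l1 (0.028), Rplp2 (0.030), Rps27l (0.099), Rps3 (0.0040) and Rps6 (0.018), and of the strain difference of Rpl12 (0.027). Median scaling turned the sign of the DBA/2 mean changes of Rpl13a (0.022) and Rps27l (0.048), and of the strain difference of Rpl12 (0.019). Normexp correction turned the sign of the DBA/2 mean change of Rps27l (0.0025), and of the B6 mean change of Rps6 (0.0073), and of the strain differences of Rps3 (-0.020) and Rps6 (-0.14). The slide block turned the sign of the strain difference of Rpl12 (0.014). The use of technical array 2 alone turned the sign of the strain difference of Rpl12 (0.0088). With 1 replicate left out, the sign also turned within the ranges of -0.053 to 0.029 for the strain difference of Rpl12, -0.071 to 0.17 for the DBA/2 mean change of Rpl5, -0.18 to 0.0030 for the DBA/2 mean change of Rplp2, -0.049 to 0.014 for the DBA/2 mean change of Rps27l and -0.044 to 0.11 for the strain difference of Rps6.

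With the replicate block, the calls numbered 45 in DBA/2 2 w, 27 in B6 2 w, 20 in B6 4 w, 13 in B6 9 w, 47 in the B6 mean and 16 in the strain difference. With the slide as a random block, the calls numbered 54 in DBA/2 2 w, 78 in DBA/2 4 w, 49 in DBA/2 8 w, 34 in B6 2 w, 21 in B6 4 w, 10 in B6 9 w and 18 in the strain difference. In fits of each strain alone, the calls numbered 3 in DBA/2 2 w, 30 in DBA/2 4 w, 14 in DBA/2 8 w, 31 in the DBA/2 mean, 1 in B6 2 w, 5 in B6 4 w, 27 in B6 8 w, 0 in B6 9 w and 7 in the B6 mean. With array weights, the calls numbered 8 in B6 9 w. The replicate block otherwise left counts within 1.5 times.

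Without a filter, the calls numbered 2 in DBA/2 2 w, 9 in DBA/2 4 w, 6 in DBA/2 8 w, 30 in DBA/2 9 w, 13 in the DBA/2 mean, 0 in B6 2 w, 2 in B6 4 w, 14 in B6 8 w, 0 in B6 9 w, 3 in the B6 mean, 36 in the strains at 0 w, 26 in the strains at 4 w, 55 in the strains at 8 w and 0 in the strain difference. With the filter at 9 of 18 samples, the calls numbered 16 in B6 2 w and 8 in B6 9 w. With a floor of 10, the calls numbered 8 in B6 9 w. Taking the mean probe of each gene, the calls numbered 14 in DBA/2 2 w, 31 in DBA/2 4 w, 16 in DBA/2 8 w, 44 in DBA/2 9 w, 31 in the DBA/2 mean, 5 in B6 2 w, 29 in B6 8 w, 37 in the strains at 0 w, 32 in the strains at 4 w, 59 in the strains at 8 w and 4 in the strain difference. Counting 1 main probe per gene, the calls numbered 17 in DBA/2 2 w, 31 in DBA/2 4 w, 18 in DBA/2 8 w, 30 in the DBA/2 mean, 40 in the strains at 0 w, 32 in the strains at 4 w and 3 in the strain difference. By a 2-fold change without a test, the calls numbered 2 in DBA/2 2 w, 2 in DBA/2 4 w, 2 in DBA/2 8 w, 1 in DBA/2 9 w, 1 in the DBA/2 mean, 0 in B6 2 w, 1 in B6 4 w, 4 in B6 8 w, 2 in B6 9 w, 3 in the B6 mean, 11 in the strains at 0 w, 4 in the strains at 4 w, 7 in the strains at 8 w and 1 in the strain difference. Against the 2 w group, where the means are those of 4 w and 9 w, the calls numbered 5 in DBA/2 4 w, 9 in DBA/2 9 w, 7 in the DBA/2 mean, 38 in B6 4 w, 34 in B6 9 w and 46 in the B6 mean. The median changes became -0.14 in DBA/2 4 w, -0.13 in DBA/2 9 w, -0.12 in the DBA/2 mean, -0.35 in B6 4 w, -0.37 in B6 9 w and -0.35 in the B6 mean.

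With 1 replicate left out, the members called ranged over 2 to 5 in DBA/2 2 w, 21 to 37 in DBA/2 4 w, 10 to 14 in DBA/2 8 w, 40 to 68 in DBA/2 9 w, 16 to 46 in the DBA/2 mean, 0 to 1 in B6 2 w, 3 to 5 in B6 4 w, 17 to 22 in B6 8 w, 3 to 4 in B6 9 w, 4 to 12 in the B6 mean, 39 to 47 in the strains at 0 w, 33 to 42 in the strains at 4 w, 59 to 80 in the strains at 8 w and 1 to 7 in the strain difference. The medians then ranged over -0.24 to -0.14 in DBA/2 2 w, -0.34 to -0.25 in DBA/2 4 w, -0.15 to -0.064 in DBA/2 8 w, -0.40 to -0.30 in DBA/2 9 w, -0.25 to -0.19 in the DBA/2 mean, 0.22 to 0.25 in B6 2 w, -0.10 to -0.074 in B6 4 w, -0.26 to -0.24 in B6 8 w, -0.16 to -0.12 in B6 9 w, -0.20 to -0.16 in the B6 mean, 0.18 to 0.24 in the strains at 0 w, 0.011 to 0.10 in the strains at 4 w, 0.36 to 0.44 in the strains at 8 w and -0.039 to 0.041 in the strain difference.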
